A study of Mus musculus with 4 samples.

Results

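The comparison described here is between 1 array of sorted intestinal stem cells that carry a mutated LncGata6 and 1 array of wild-type non-stem cells, 2 of the 4 arrays in the study. The difference is always the mutant stem array minus the non-stem array, in log2 units, so a difference of 1 is 2-fold. It was taken for the 30711 genes measured by features with exactly 1 gene symbol. All 4 samples came from the small intestine of 8-week-old mice carrying Lgr5GFP-CreERT2, an allele in which Lgr5 drives both a green fluorescent protein and an inducible Cre. The non-stem group was sorted as GFP-negative cells of wild-type genotype. The mutant group was sorted as GFP-positive cells of genotype LncGata6 mut. The remaining samples, wild-type GFP-positive stem cells and GFP-positive cells of genotype Ehf-/-, are given beside these as points of reference. The labels say neither what the LncGata6 mutation removes nor whether cells of several mice were pooled. The collection text of every sample also names ILCreg cells, a kind of innate lymphoid cell, as what was sorted, so the gate is uncertain. The mutant and non-stem arrays differ by label in both genotype and gate, and the contributions of the genotype and the gate cannot be told apart. With 1 array per group there is no replicate, test or standard error for any value, and precision is limited by how few arrays there are.

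The small intestine is lined by an epithelium that renews itself from stem cells at the base of the crypts. These cells carry Lgr5, a receptor for R-spondins, which strengthen Wnt signals. Their daughters divide in the crypt and become absorptive enterocytes, which digest and take up nutrients on the villus, or secretory cells: Paneth cells that release antimicrobial proteins, goblet cells that make mucus, enteroendocrine cells that make hormones, and tuft cells. Intraepithelial lymphocytes, many of them CD8-positive T cells with cytotoxic granules, lie between the epithelial cells. LncGata6 is a long noncoding RNA transcribed near Gata6, a transcription factor of gut endoderm. The study placed it upstream of the epithelial transcription factor Ehf and of the receptors Lgr4 and Lgr5, through the NURF chromatin remodelling complex.

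Genes were called higher or lower when the difference reached 2-fold and the brighter of the values was at or above the 75th percentile of named features on its array, which was 5.26 on the non-stem and 4.93 on the mutant array. The 95th percentile of negative control features, 5.16 and 5.31, served as the control limit, and values under it count as background. Where the dimmer value lay under the limit, the fold was taken over the limit instead and is a lower bound. By these rules 1125 genes were higher on the mutant array (3.66% of all genes) and 2111 were lower (6.87%), of which 434 and 967 passed 4-fold. Over all genes the median difference was -0.16. Quantile normalization gave 1574 higher and 1574 lower genes and cyclic loess 1484 and 1693, so the balance of higher and lower genes moved with the scaling. These scalings moved the median of all genes by 0.22 and 0.18, and centring each array on its median by 0.13. Housekeeping genes stayed near each other, as with Eef1a1 (10.08 against 9.98) and Hprt (7.13 against 6.85), and the median over 10 of them was 0.25, with Sdha alone called. The non-stem array stood apart from the rest by its transcripts of other organs. Hepatocyte plasma protein genes were above the control limit there in 25 of 25 cases, against 1 on the mutant, 0 on the wild-type stem and 3 on the Ehf knockout array. For 21 genes of kidney proximal tubule these numbers were 21, 3, 1 and 2. Every difference below rests on this 1 non-stem array and could not be computed without it.

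**Figure D1:**
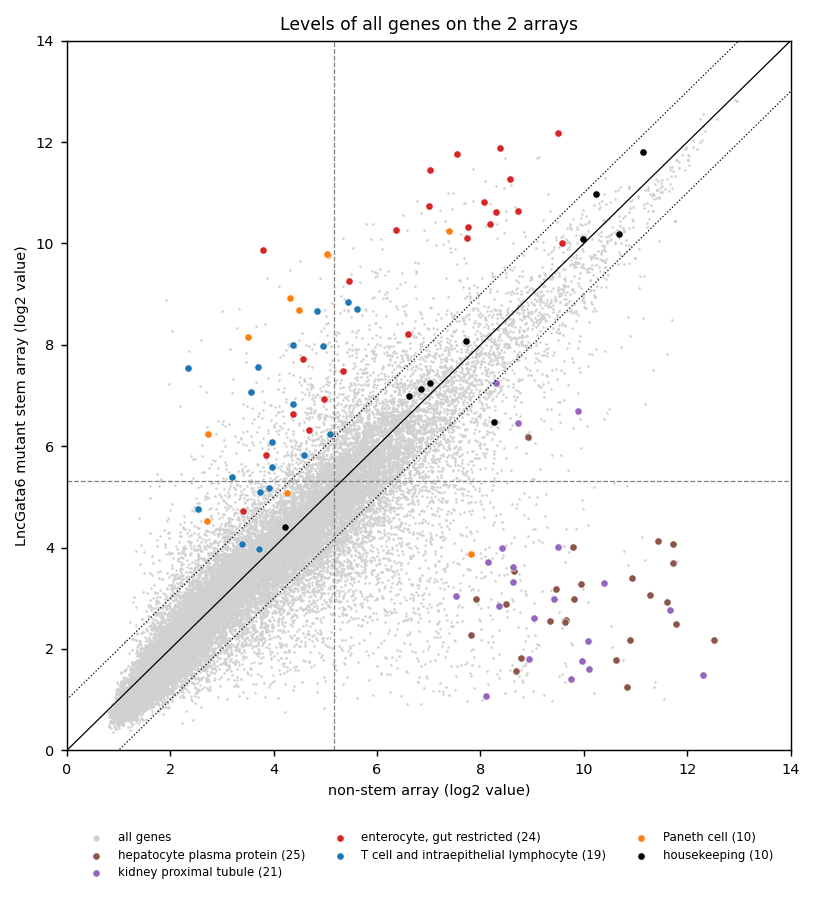
Each point is a gene, placed by its log2 value on the non-stem array (x axis) and on the LncGata6 mutant stem array (y axis); the solid line marks equal values, dotted lines a 2-fold difference and dashed lines the control limits (5.16 and 5.31). Hepatocyte and kidney proximal tubule genes lie far to the right and low, gut-restricted enterocyte genes lie up and to the left with 22 of 24 called higher, and T cell genes lie above the control limit on the mutant array in 14 of 19 cases.

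The sort marker was at background on both arrays. Lgr5 read 3.03 in non-stem, 9.41 in wild-type stem, 3.03 in mutant and 2.79 in Ehf knockout cells. It passed the control limit on the wild-type stem array alone, so the transcript that names the gate was at background in the sample labelled mutant and GFP-positive. The arrays keep the names of their labels here. The other genes of the LncGata6 pathway list divided. Gata6 read 5.08 in non-stem, 7.21 in wild-type stem, 7.62 in mutant and 3.17 in Ehf knockout cells, and was at least 5.51-fold higher on the mutant than on the non-stem array. Gata6os, the noncoding RNA gene listed beside it, read 4.37 against 3.14, both at background. Whether that feature is LncGata6, and where it lies relative to the mutation, is not known here, so it checks no label. Ehf read 3.75 in non-stem, 6.99 in wild-type stem, 5.09 in mutant and 3.03 in Ehf knockout cells, a called difference of 1.34 that carries no fold because both values of the comparison lie under the control limits. When the brighter value was required to pass the control limit, Ehf was no longer called.

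Lgr4, the R-spondin receptor that is more widely expressed, ran the other way. It read 7.25 in non-stem, 6.52 in wild-type stem, 5.57 in mutant and 3.10 in Ehf knockout cells, and was 3.22-fold lower on the mutant than on the non-stem array. The part of liver and kidney transcripts of the non-stem array in the Lgr4 difference was not tested. The NURF subunits were not called. Bptf, the largest of them, read 5.92 against 5.92, the histone-binding subunits Rbbp4 and Rbbp7 differed by -0.94 and -0.28, and the ATPase Smarca1 was at background on all 4 arrays. In total 2 of the 9 genes were higher and 1 was lower, where 3.66% and 6.87% of all genes were.

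Most crypt base stem cell genes did not separate the arrays. Of 23 measured genes 1 was higher and 2 were lower, where 3.66% and 6.87% of all genes were. Their median was -0.0027, which turned positive under all 3 other scalings. Olfm4, a secreted glycoprotein of crypt base cells, was the higher one. It read 5.42 in non-stem, 10.81 in wild-type stem, 8.06 in mutant and 5.86 in Ehf knockout cells, 6.22-fold higher on the mutant than on the non-stem array and below the wild-type stem array. The lower ones were Igfbp4 (at least 9.80-fold), which binds insulin-like growth factors, and Fstl1 (at least 1.08-fold), both also made by mesenchymal cells. The part of mesenchymal, liver or kidney transcripts of the non-stem array in these differences was not tested. Ascl2, a transcription factor of stem cell identity, was at background on both arrays (3.85 against 3.86). Smoc2 (4.24 against 4.72) and Lrig1 (4.63 against 4.82) were too. Of the 23 genes, 7 were above the control limit on the non-stem array and 2 on the mutant array. Among 12 Wnt target genes 1 was called higher, where 3.66% of all genes were. It was the feedback inhibitor Axin2, at 5.38 against 4.20 or at least 1.16-fold higher. The median of the 12 genes was -0.0086. Of these genes 2 were above the control limit on the mutant array and 1 on the non-stem array. Sox9, which marks crypt progenitors, differed by 0.29 and Myc by 0.49.

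Genes of cell division leaned toward the mutant array, and few passed both limits. All 24 mitosis genes had a difference above 0, with a median of 1.07, and 6 were called higher. These were the cyclins Ccnb2 (at least 3.0-fold) and Ccna2 (at least 1.91-fold), the spindle motor Kif11 (at least 1.26-fold), topoisomerase Top2a (at least 1.58-fold), the kinase Plk1 (at least 1.59-fold) and the kinase Aurka, whose call ended when the brighter value had to pass the control limit. Mki67, the common label of cycling cells, read 5.97 in non-stem, 8.55 in wild-type stem, 6.84 in mutant and 9.78 in Ehf knockout cells, and was not called. The mutant value lay under those of the Ehf knockout and wild-type stem cells. DNA replication genes had a median of 0.54. Of 25 such genes 1 was called higher, the helicase subunit Mcm4 (at least 1.31-fold), where 3.66% of all genes were. On the mutant array 5 of the 25 were above the control limit and on the non-stem array 2. The median thus describes mostly values at background. Mitosis genes above the control limit numbered 7 in mutant, 2 in non-stem, 13 in wild-type stem and 19 in Ehf knockout cells.

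Absorptive enterocyte genes that are largely restricted to the gut were higher on the mutant array almost throughout. Of 24 such genes 22 were called higher and none lower, with a median of 2.46. In bulk RNA of sorted cells, more cells of a type and more RNA per cell cannot be told apart. Sucrase-isomaltase (Sis), which splits sucrose and starch products at the brush border, read 7.01 in non-stem, 8.86 in wild-type stem, 10.75 in mutant and 1.75 in Ehf knockout cells. Lactase (Lct), which splits milk sugar, read 5.46 in non-stem, 4.24 in wild-type stem, 9.27 in mutant and 3.38 in Ehf knockout cells. The mutant array was the highest of the 4 for both, by 13.3-fold and 14-fold over the non-stem array. Fabp2, the intestinal fatty acid binding protein, read 9.50 in non-stem, 9.54 in wild-type stem, 12.19 in mutant and 1.95 in Ehf knockout cells, which is 6.42-fold higher on the mutant array than on the non-stem array. The chloride channel regulators Clca4a (21.5-fold) and Clca4b (18.6-fold) had larger differences, and these near-identical paralogs may share probes. Krt20, the keratin of differentiated villus cells, was 11.3-fold higher, Cdh17, a cadherin of gut epithelium, 15-fold, and the actin bundler Vil1 5.17-fold. Guca2b, the uroguanylin precursor (0.44), and the homeobox factor Cdx1 (1.33) did not pass both limits.

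The enterocyte genes that liver or kidney also express behaved less uniformly. Of 21 of them 8 were higher and 3 lower, and the median was 0.15. All 21 were above the control limit on the non-stem array, at a median level of 8.35 against 8.68 on the mutant array and 5.58 on the wild-type stem array. Mttp, which loads lipid onto nascent lipoproteins, was 6.41-fold higher on the mutant array, and the aminopeptidase Anpep 6.0-fold. Apoa1 (-0.14), the glucose carrier Slc2a2 (-0.49), the liver-type fatty acid binding protein Fabp1 (-0.62) and Hnf4a (-0.41) were not called. Meprin alpha (Mep1a), a protease also abundant in kidney, was 4.79-fold lower on the mutant array, Cyp3a11, a drug-metabolising enzyme also of liver, 2.85-fold and fructokinase (Khk) 2.32-fold, the last not called under quantile or loess scaling. The summed part of liver and kidney transcripts, bright on the non-stem array at a median level of 9.80 for plasma proteins and 9.03 for proximal tubule genes, was not tested in these differences.

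**Figure D2:**
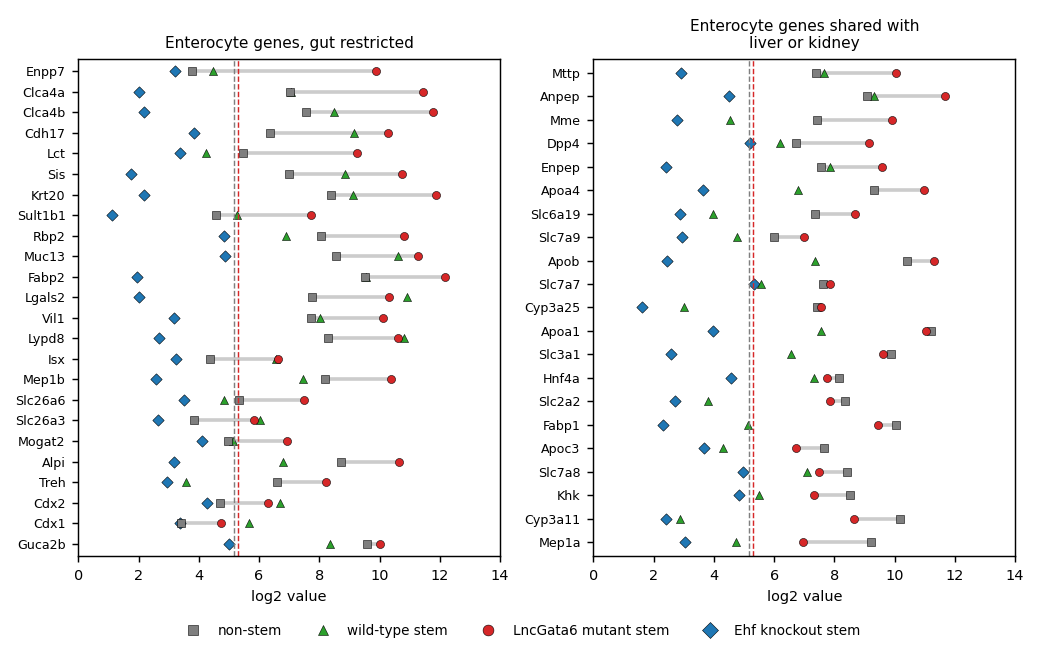
Log2 value (x axis) of each enterocyte gene on the 4 arrays (marker shapes), with a grey bar joining the non-stem and LncGata6 mutant stem values and dashed lines at their control limits. In the left panel the mutant array exceeds the non-stem array for all 24 gut-restricted genes; in the right panel 11 of 21 shared genes have a difference above 0 and the others do not.

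To set the higher gut genes beside the lower organ genes, promoter windows are shown for Sis and Lct and for Alb and Kap, the last being the leading liver and kidney transcripts described further on. Each runs from 250 bases before to 50 after the start of the gene in RefSeq (GRCm38.p6), 5′ to 3′ on the strand of the gene. Capitals mark matches on either strand to letters bound by gut and liver factors, and to the general TATA box (TATAAA). The factor letters are AGATAA or TGATAA for GATA factors, TTTATG for CDX, GTTAAT for HNF1 and AAAGTCC for HNF4.

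Sis, chr3:72967814-72968113, minus strand: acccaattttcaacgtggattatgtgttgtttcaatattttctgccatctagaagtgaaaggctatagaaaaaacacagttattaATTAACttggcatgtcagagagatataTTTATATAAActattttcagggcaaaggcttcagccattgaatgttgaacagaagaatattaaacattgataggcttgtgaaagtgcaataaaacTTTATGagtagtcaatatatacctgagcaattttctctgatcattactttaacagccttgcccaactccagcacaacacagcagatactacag

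Lct, chr1:128328269-128328568, minus strand: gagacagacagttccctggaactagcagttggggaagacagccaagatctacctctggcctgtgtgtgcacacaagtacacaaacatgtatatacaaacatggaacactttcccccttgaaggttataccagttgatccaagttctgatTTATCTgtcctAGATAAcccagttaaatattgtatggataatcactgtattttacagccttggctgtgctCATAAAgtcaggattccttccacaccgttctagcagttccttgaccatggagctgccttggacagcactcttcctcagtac

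Alb, chr5:90460620-90460919, plus strand: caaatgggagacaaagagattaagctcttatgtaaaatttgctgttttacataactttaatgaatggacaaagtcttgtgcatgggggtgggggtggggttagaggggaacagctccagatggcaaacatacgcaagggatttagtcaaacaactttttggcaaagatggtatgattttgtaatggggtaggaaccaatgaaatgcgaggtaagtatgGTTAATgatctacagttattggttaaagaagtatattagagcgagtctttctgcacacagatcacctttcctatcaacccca

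Kap, chr6:133853618-133853917, minus strand: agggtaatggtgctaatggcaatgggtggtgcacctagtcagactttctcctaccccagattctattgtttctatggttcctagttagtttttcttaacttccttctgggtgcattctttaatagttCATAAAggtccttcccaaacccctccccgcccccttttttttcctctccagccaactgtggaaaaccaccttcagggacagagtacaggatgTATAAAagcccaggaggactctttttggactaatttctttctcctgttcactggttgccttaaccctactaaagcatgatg

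The Sis window held the CDX letters once, at -43 to -38 from the start, the HNF1 letters once, at -165 to -160, and a TATA match on each strand, which overlap. In the Lct window the GATA letters AGATAA occurred at -101 to -96 and at -90 to -85, and the CDX letters at -31 to -26. Alb held the HNF1 letters at -32 to -27. Kap held TATAAA at -31 to -26 and the CDX letters at -123 to -118. The window of Fabp2 held no match and is not printed. Of 32851 promoter windows in the table, 11.2% held AGATAA, 9.05% TGATAA, 11.9% TTTATG, 7.1% GTTAAT, 4.21% AAAGTCC and 13.6% TATAAA. The matches are a description of letters, and no binding was measured.

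Among functional groups of the enterocyte, the enzymes of the brush border were called almost throughout. Of 16 hydrolases 15 were higher, with a median of 2.47, and Mep1a was the lower one. Enpp7, the sphingomyelinase of the gut lumen, read 3.79 in non-stem, 4.46 in wild-type stem, 9.87 in mutant and 3.21 in Ehf knockout cells. It was near background on every array but the mutant, where it stood at least 26.2-fold above the non-stem array. The peptidase Naaladl1 was at least 17.9-fold higher, neprilysin (Mme) 5.59-fold, angiotensin-converting enzyme (Ace) 5.49-fold, maltase-glucoamylase (Mgam) 4.44-fold, alkaline phosphatase (Alpi) 3.78-fold and trehalase (Treh) 3.09-fold. On the wild-type stem array the same list stood at a median of -0.63 against the non-stem array, which both of these comparisons share.

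Nutrient carriers were divided, with 7 higher and 6 lower of 22 and a median of -0.0068, positive under the 3 other scalings. The higher ones named here take up nutrients from the gut lumen. Slc15a1, which imports peptides, read 5.91 in non-stem, 5.38 in wild-type stem, 10.38 in mutant and 3.19 in Ehf knockout cells, and was 22.1-fold higher on the mutant than on the non-stem array. Slc34a2, the intestinal phosphate carrier, read 9.47 against 4.31 and was at least 19.9-fold higher, the nucleoside carrier Slc28a2 8.18-fold, the sodium-glucose carrier Slc5a1 5.92-fold and the amino acid carrier Slc6a19 2.50-fold. Kidney tubule also uses several of the lower ones. These were the vitamin C carrier Slc23a1 (6.57-fold), the lactate carrier Slc5a12 (2.60-fold), the glutamate carrier Slc1a1 (at least 3.61-fold), the iron importer Slc11a2 (at least 2.65-fold), the thiamine carrier Slc19a3 (at least 1.13-fold) and the iron exporter Slc40a1 (at least 2.17-fold). Slc2a5, the fructose carrier, was level at 5.81 against 5.82.

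Genes of dietary fat handling were mostly higher, 11 of 20 against 3 lower, with a median of 1.82. Npc1l1, the cholesterol uptake protein that ezetimibe blocks, read 5.66 in non-stem, 6.54 in wild-type stem, 9.56 in mutant and 3.30 in Ehf knockout cells and was 14.9-fold higher on the mutant than on the non-stem array. Also higher were the fatty acid carrier Slc27a4 (4.84-fold), the triglyceride synthases Dgat1 (4.77-fold) and Mogat2 (at least 3.41-fold), the sterol exporters Abcg5 (4.04-fold) and Abcg8 (3.98-fold) and the chylomicron protein Apoa4 (3.21-fold). The lipid droplet coat Plin2 (4.92-fold), the fatty acid receptor Cd36 (4.71-fold) and the lipoprotein receptor Scarb1 (at least 1.32-fold) were lower. Genes of purine breakdown, which the villus tip performs, were called higher in 8 of 12 cases. Adenosine deaminase (Ada) read 8.31 in non-stem, 5.69 in wild-type stem, 11.13 in mutant and 6.04 in Ehf knockout cells, and was 7.07-fold higher on the mutant than on the non-stem array. Guanine deaminase (Gda) was 7.71-fold higher and xanthine dehydrogenase (Xdh) 3.93-fold. The lower members were urate oxidase (Uox), an enzyme of liver, with a difference of at least 8.36-fold, and adenosine kinase (Adk), with 4.53-fold.

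Along the villus, genes of the tip had 8 of 12 higher (median 1.86), those of the middle 5 of 12 (0.56) and those of the bottom 7 of 12 (1.85). The lower members were Egfr at the tip (3.71-fold) and the lectin Reg1 at the bottom (7.22-fold). The middle list holds many genes shared with liver and kidney, such as Apob (0.88) and Apoa1. Against the wild-type stem array, with which the comparison shares the mutant array, the medians were 1.74, 3.32 and 0.063 from tip to bottom.

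Of the genes of the ileum, the last stretch of the small intestine, 8 of 14 were higher and 1 was lower. Fabp6, the bile acid binding protein of ileal enterocytes, read 1.91 in non-stem, 9.22 in wild-type stem, 8.87 in mutant and 2.83 in Ehf knockout cells. It was bright on the wild-type stem and mutant arrays and at background on the others, and the mutant array was at least 13.1-fold above the non-stem array. Nts, the neurotensin precursor of ileal endocrine cells, read 2.04 in non-stem, 5.08 in wild-type stem, 8.27 in mutant and 2.27 in Ehf knockout cells and was at least 8.62-fold higher on the mutant than on the non-stem array. The basolateral bile acid exporter subunits Slc51b (7.54-fold) and Slc51a (2.24-fold) were higher, and so was the pentraxin Mptx1 (at least 4.09-fold). The lower one was cubilin (Cubn, 4.82-fold), an uptake receptor also of kidney tubule. Slc10a2, the apical bile acid importer, was 5.67 against 5.54 and not called. Genes of the proximal intestine had 4 of 11 higher and 2 lower, with a median of 0.42 against 2.09 for the ileum. Cyp2b10 (at least 4.63-fold) and Adh6a (3.41-fold) were higher with Lct, while Reg1 and Slc40a1 were lower.

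Transcription factors of gut epithelium followed with 9 of 22 higher and 2 lower. Klf4, a factor of differentiated epithelium, was 7.73-fold higher and Hnf4g, which drives enterocyte genes, 6.61-fold. Hnf4g read 6.19 in non-stem, 7.38 in wild-type stem, 8.92 in mutant and 2.22 in Ehf knockout cells. Gata5 (at least 2.66-fold), Klf5 (at least 2.77-fold), Isx (at least 2.78-fold), which acts in vitamin A uptake, Elf3 (3.22-fold) and the intestinal identity factor Cdx2 (at least 2.22-fold) were higher as well. Nuclear receptors that liver shares were the lower ones: the fatty acid sensor Ppara (at least 2.90-fold) and the bile acid sensor Nr1h4 (at least 2.56-fold). Gata4 (0.86) was not called.

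Of 16 epithelial genes not tied to a lineage 13 were higher (median 2.04), and 16 differences were above 0. The adhesion molecule Epcam read 7.22 in non-stem, 9.70 in wild-type stem, 10.65 in mutant and 3.78 in Ehf knockout cells, and was 10.8-fold higher on the mutant than on the non-stem array. The keratins Krt8 and Krt19 were 7.93-fold and 5.38-fold higher, and the junction protein Cdh1 4.13-fold. The control limit was passed by 15 of 16 such genes in mutant, 14 in non-stem, 15 in wild-type stem and 0 in Ehf knockout cells.

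Of 10 Paneth cell genes 7 were higher on the mutant array, with a median of 3.86. On the non-stem array 2 of them were above the control limit, so most folds here are lower bounds and the median includes values at background. Itln1, an intelectin that binds microbial sugars, read 4.50 in non-stem, 10.53 in wild-type stem, 8.70 in mutant and 2.33 in Ehf knockout cells. It was at least 11.6-fold higher on the mutant than on the non-stem array, and highest on the wild-type stem array. The alpha-defensins Defa22 (at least 24.9-fold) and Defa21 (at least 24.4-fold) belong to a near-identical family that may share probes. Ang4, a microbicidal ribonuclease, was at least 8.02-fold higher, the prodefensin-cleaving protease Mmp7 at least 2.13-fold and Paneth lysozyme Lyz1 7.30-fold. Pla2g2a, a secreted phospholipase, differed by 1.82 with the mutant value at background. Habp2, a protease that liver also secretes, was at least 5.68-fold lower. Against the wild-type stem array, the median of these genes on the mutant array was -1.72.

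Of 15 goblet cell genes 10 were higher (median 2.67). The main secreted mucin Muc2 read 6.57 in non-stem, 9.74 in wild-type stem, 10.26 in mutant and 3.0 in Ehf knockout cells, which places the mutant array 12.9-fold above the non-stem array. The mucin-folding protein Agr2 was at least 9.46-fold higher, the trefoil peptide Tff3 7.14-fold, Clca1, which processes mucus, 9.41-fold, Guca2a, the guanylin precursor, at least 4.49-fold and the secretory fate factor Atoh1 at least 1.46-fold. Spdef (0.72) and Foxa3 (-0.27) were not called. All 21 enteroendocrine genes had a difference above 0 and 7 were called (median 1.27), although most values lay at background. After Nts came the granins Chgb (at least 1.57-fold) and Chga (at least 2.12-fold) and the hormones Gip (at least 2.15-fold), Ghrl (at least 1.16-fold) and Sst (2.17-fold). The mutant array had 7 of them above its control limit and the non-stem array 1. Tuft cell genes had a median of 0.67, but 0 of 13 were above the limit on the mutant array, so the median describes values at background. Their 1 called gene, the succinate receptor Sucnr1, was lower (at least 1.06-fold), and neither quantile nor loess scaling called it.

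Surface defence genes were higher in 11 of 18 cases. They included the hydrogen peroxide source of the epithelium. Its maturation factor Duoxa2 read 3.0 in non-stem, 6.60 in wild-type stem, 8.67 in mutant and 3.82 in Ehf knockout cells, and was at least 11.4-fold higher on the mutant than on the non-stem array. The oxidase itself, Duox2, read 3.29 in non-stem, 6.49 in wild-type stem, 8.33 in mutant and 3.53 in Ehf knockout cells, a difference of at least 9.03-fold on the same arrays. The bactericidal lectins Reg3g (18.5-fold) and Reg3b (9.25-fold), the membrane mucins Muc3 (16.5-fold) and Muc13 (6.49-fold), Reg4 (at least 4.55-fold) and the inducible nitric oxide synthase Nos2 (at least 1.80-fold) were higher. Pigr, which carries IgA to the lumen, was 2.44-fold higher. The lower members were those that neutrophils carry, Lcn2 (at least 1.24-fold), S100a8 (at least 5.92-fold) and S100a9, its dimer partner (at least 6.28-fold).

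**Figure D3:**
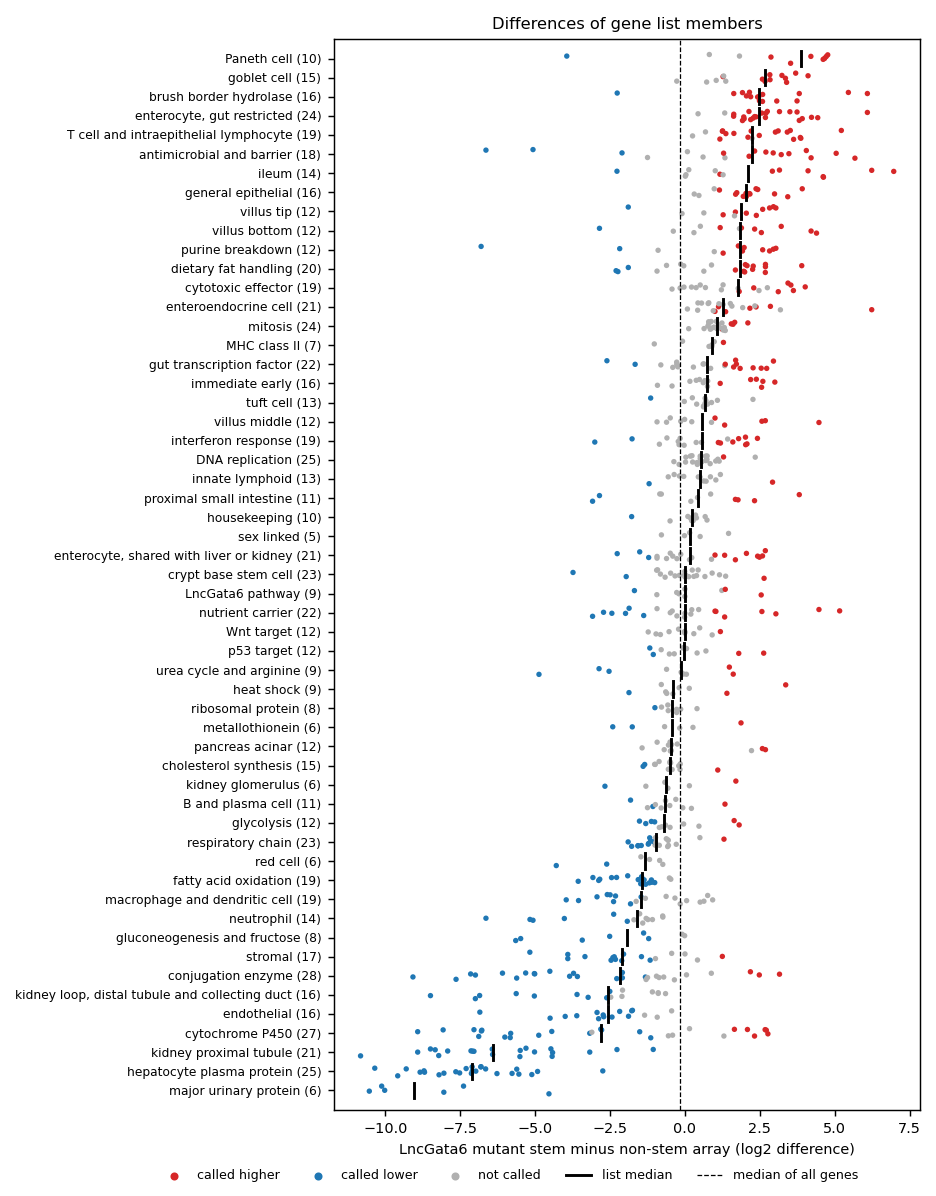
Log2 difference, LncGata6 mutant stem minus non-stem array (x axis), of the measured members of 55 gene lists (rows, with the number measured), coloured by call; black bars are list medians and the dashed line is the median of all genes (-0.16). Paneth, goblet, brush border and gut-restricted enterocyte lists lie at the top, and kidney proximal tubule, hepatocyte and major urinary protein lists at the bottom.

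Transcripts of T cells and intraepithelial lymphocytes stood out on the mutant array. Of 19 measured genes 16 were called higher and 0 lower, and all differences were above 0, with a median of 2.24. Cd8a, the coreceptor of cytotoxic T cells, read 4.83 in non-stem, 4.21 in wild-type stem, 8.68 in mutant and 5.16 in Ehf knockout cells. Cd3e, a signalling chain of the T cell receptor, read 5.60 in non-stem, 5.06 in wild-type stem, 8.71 in mutant and 6.69 in Ehf knockout cells. Both were highest on the mutant array, at least 11.4-fold and 8.62-fold above the non-stem array. Itgae, the integrin CD103 that holds lymphocytes to E-cadherin, read 3.69 in non-stem, 3.67 in wild-type stem, 7.56 in mutant and 3.24 in Ehf knockout cells, above the control limit only on the mutant array (at least 5.27-fold over the non-stem array). Cd69, a marker of tissue residence, was at least 5.24-fold higher, at 7.55 on the mutant array. It also read 6.79 on the wild-type stem array, where it was the 1 listed T cell gene above the control limit. The receptor Cd160 was at least 3.77-fold higher than on the non-stem array, Cd7 10.6-fold, Cd3g at least 7.15-fold and Cd8b1 at least 7.04-fold. Cd4 (5.09 against 3.73) was called with both values at background, and Cd2 (0.25) was not called. On the mutant array 14 of these genes passed the control limit, against 2 on the non-stem, 1 on the wild-type stem and 9 on the Ehf knockout array. The wild-type stem array stood at a median of -0.022 from the non-stem array that it shares with this comparison.

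Cytotoxic effector genes were higher in 7 of 19 cases and lower in 0. Granzyme A (Gzma) read 7.86 in non-stem, 7.15 in wild-type stem, 11.47 in mutant and 5.88 in Ehf knockout cells, and granzyme B (Gzmb) 6.08 in non-stem, 5.83 in wild-type stem, 10.09 in mutant and 4.61 in Ehf knockout cells. Both proteases were highest on the mutant array, by 12.3-fold and 16.1-fold over the non-stem array. The chemokine Ccl5 was 8.64-fold higher, the granule protein Nkg7 4.90-fold, the receptor Klrd1 at least 2.43-fold and interferon gamma (Ifng) at least 1.15-fold. Perforin (Prf1) was at background on both arrays (4.10 against 2.83), as were Eomes, Tbx21 and the natural killer receptors Ncr1 and Klrb1c. Ptprc, the leukocyte antigen CD45, read 6.25 in non-stem, 5.72 in wild-type stem, 7.80 in mutant and 8.40 in Ehf knockout cells, 2.93-fold higher on the mutant than on the non-stem array and highest on the Ehf knockout array.

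**Figure D4:**
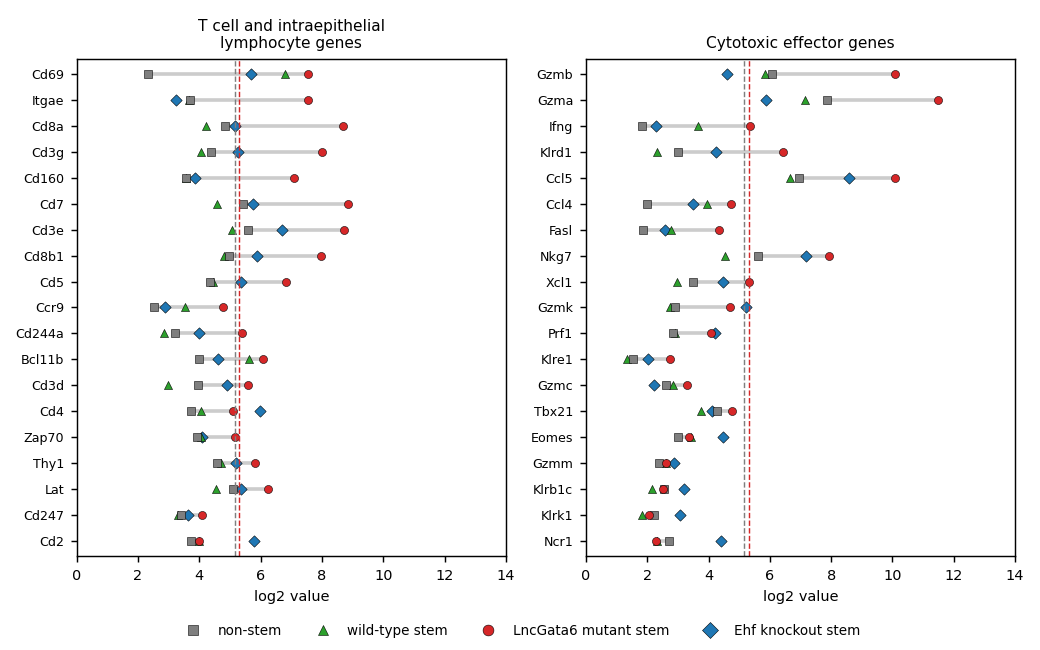
Log2 value (x axis) of T cell and intraepithelial lymphocyte genes (left) and cytotoxic effector genes (right) on the 4 arrays (marker shapes), with a grey bar joining the non-stem and LncGata6 mutant stem values and dashed lines at their control limits. On the mutant array 14 of 19 T cell genes and 6 of 19 effector genes lie above the limit, against 2 and 4 on the non-stem array.

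Genes of other blood cells were called higher in few cases. Genes of innate lymphoid cells, the population that the collection text names, had 1 of 13 higher and 1 lower. Over all genes 3.66% were higher and 6.87% lower. Of these 13 genes 3 were above the control limit on the mutant array and 3 on the non-stem array. Il7r, shared by T cells and innate lymphoid cells, was at least 2.61-fold higher. Il10 (2.94 against 1.76) and Id3 (5.28 against 4.43, a difference below 2-fold) were at background on both arrays. Rora was at least 1.21-fold lower, its features did not agree on the size, and quantile and loess scaling ended the call. Of 11 B and plasma cell genes the joining chain Jchain was 2.52-fold higher, while Ighm (3.52-fold) and Cd79b (at least 1.39-fold) were lower, the latter not called under any of the 3 other scalings. Macrophage genes were lower in 9 of 19 cases (median -1.46), among them Csf1r (at least 2.39-fold), C1qb (at least 3.89-fold) and Cd5l (at least 2.83-fold). Vsig4 (at least 1.07-fold) and Clec4f (at least 1.77-fold) mark Kupffer cells, the macrophages of liver. Neutrophil genes were lower in 6 of 14, with 6 above the limit on the non-stem array and 0 on the mutant array. Among red cell genes the haem synthase Alas2 (at least 3.62-fold) and the anion exchanger Slc4a1 (at least 1.84-fold), which kidney also makes, were lower of 6 measured.

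Interferon response genes were higher in 8 of 19 cases and lower in 2, with a median of 0.55. The nucleic acid sensor Zbp1 was at least 5.06-fold higher, the antiviral Oas1a at least 3.51-fold, Ifit1 at least 2.97-fold and the interferon gamma-induced GTPases Igtp 3.46-fold and Gbp2 3.02-fold. Bst2, a tether of virus particles, read 8.24 in non-stem, 5.56 in wild-type stem, 5.23 in mutant and 6.07 in Ehf knockout cells and was at least 7.60-fold lower on the mutant than on the non-stem array, and Iigp1 was lower too (3.51 against 5.28). Mx1 and Mx2 were at background on both arrays. Of 7 genes of MHC class II presentation, H2-Aa was called (2.43-fold higher) and H2-Ab1 differed by 0.89.

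The genes lower on the mutant array included many products of liver and kidney. All 25 hepatocyte plasma protein genes and all 21 genes of the kidney proximal tubule list were called lower, with medians of -7.10 and -6.42. The 21 include Umod of the thick ascending limb and Cyp2e1, which is also in the cytochrome P450 list. Albumin (Alb), the main plasma protein, read 12.52 in non-stem, 2.13 in wild-type stem, 2.17 in mutant and 1.83 in Ehf knockout cells. Kap, an androgen-regulated protein of proximal tubule, read 12.30 in non-stem, 1.58 in wild-type stem, 1.48 in mutant and 1.41 in Ehf knockout cells. Both were bright on the non-stem array alone, where they exceeded the mutant array at least 148-fold and at least 127-fold. The fibrinogen chains Fgg (at least 46.2-fold), Fga (at least 39.5-fold) and Fgb (at least 47.7-fold), the lipoprotein Apoa2 (at least 89.3-fold), fetuin (Ahsg, at least 78.8-fold), and the protease inhibitors Mug1 (at least 43.3-fold) and Pzp (at least 48.2-fold) were among the 15 largest log2 differences in this direction. The major urinary proteins, pheromone carriers made by liver, were lower in 6 of 6 cases, as with Mup20 (at least 66.1-fold) and Mup3 (at least 66.6-fold). These genes are near-identical and may share probes. Complement factor Cfb, the 1 plasma protein gene above the limit on the mutant array, read 6.18 against 8.92 and was 6.69-fold lower.

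**Figure D5:**
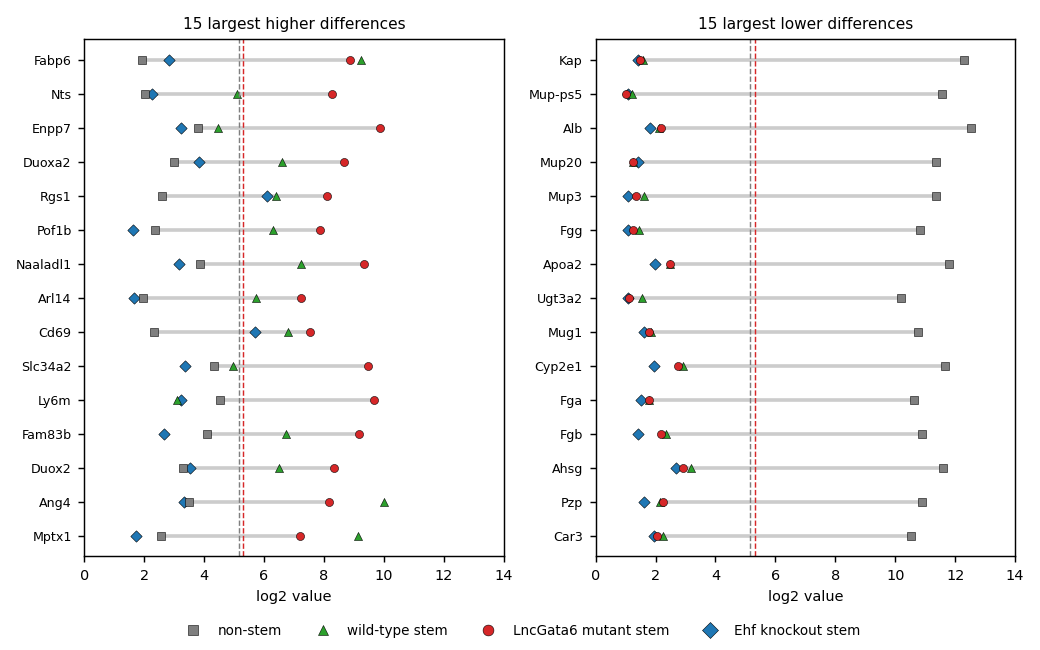
Log2 value (x axis) on the 4 arrays (marker shapes) of the 15 genes with the largest log2 difference in each direction by the naming rule, with a grey bar joining the non-stem and LncGata6 mutant stem values and dashed lines at their control limits. All 15 genes on the right are bright only on the non-stem array; on the left, Fabp6, Ang4 and Mptx1 are higher on the wild-type stem than on the mutant array.

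Kidney genes covered several segments of the nephron. Of the proximal tubule, the endocytic receptor Lrp2 read 10.07 in non-stem, 2.15 in wild-type stem, 2.16 in mutant and 2.13 in Ehf knockout cells, at least 27.2-fold lower on the mutant than on the non-stem array. The phosphate carrier Slc34a1 (at least 33.7-fold), the glucose carrier Slc5a2 (at least 8.57-fold) and the urate carrier Slc22a12 (at least 10.0-fold) were lower. Of the loop and distal segments 9 of 16 genes were lower. Uromodulin (Umod), the secreted protein of the thick ascending limb, which stands in both tubule lists, was at least 27.7-fold lower, the salt carriers Slc12a1 and Slc12a3 at least 9.65-fold and at least 11.1-fold, and the collecting duct water channel Aqp2 at least 3.21-fold. Glomerular genes were mostly at background, with Nphs1 at 3.72 on the non-stem array, and Podxl was at least 2.55-fold lower while Clic5 was 3.24-fold higher. The acinar enzymes Prss1 (3.42 against 3.87) and Cpa1 (2.90 against 3.46) of the pancreas were at background on both arrays, and the elastase Cela1 read 4.71 against 5.20, uncalled. The called members of that list, Zg16 (5.99-fold higher) and colipase (Clps, at least 3.10-fold higher), are also gut genes.

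Metabolic genes that liver and kidney use were mostly lower too, and the part of the RNA of those organs in them was not tested. Of 19 genes that burn fatty acids 17 were lower and 0 higher (median -1.45). Unlike the plasma proteins, all 19 were above the control limit on the mutant array. The medium-chain dehydrogenase Acadm read 9.51 in non-stem, 6.28 in wild-type stem, 6.64 in mutant and 5.26 in Ehf knockout cells, 7.35-fold lower on the mutant than on the non-stem array. Acaa2 was 11.8-fold lower, the peroxisomal Ehhadh 8.41-fold and the carnitine transferase Cpt1a 7.18-fold. Gluconeogenic genes were lower in 6 of 8, among them G6pc (at least 27.4-fold), Fbp1 (at least 23.2-fold) and Pck1 (10.8-fold). Of the urea cycle, Arg1 (at least 4.70-fold), Asl (at least 5.42-fold) and Cps1 (5.79-fold) were lower. Arg2, the mitochondrial arginase, was 3.05-fold higher and Aldh18a1, which starts the making of proline and ornithine, at least 1.72-fold higher.

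Drug-metabolising enzymes separated by isoform. Of 27 cytochrome P450 genes 16 were lower and 6 higher. The lower ones included Cyp2e1, which oxidises ethanol (at least 82.4-fold), Cyp2j5 (at least 37.0-fold), Cyp1a2 (at least 22.4-fold), Cyp4a14 (at least 10.7-fold) and Cyp2c50 (at least 14.1-fold). The higher ones were Cyp3a13 (6.56-fold), Cyp2c65 (6.38-fold), Cyp2c66 (at least 3.80-fold), Cyp2b10, Cyp4f14 (3.13-fold) and Cyp4f40 (at least 1.89-fold). Cyp2c65 read 5.62 in non-stem, 6.38 in wild-type stem, 8.30 in mutant and 1.75 in Ehf knockout cells, highest on the mutant array. Members of the same subfamily thus lay on opposite sides, with Cyp2c65 and Cyp2c66 higher and Cyp2c50 and Cyp2c37 (at least 7.13-fold) lower. Conjugation enzymes did likewise, 17 of 28 lower and 3 higher. Ugt3a2 (at least 29.7-fold), Ugt2b38 (at least 21.7-fold) and the carboxylesterase Ces3a (at least 27.1-fold) were lower. The sulfotransferases Sult1b1 (at least 5.92-fold) and Sult2b1 (at least 4.12-fold) and the carboxylesterase Ces2e (4.54-fold) were higher.

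Respiratory chain genes were lower in 10 of 23 cases with a median of -0.98, as with Ndufa4 (3.72-fold) and Sdha (3.43-fold). Cycs, the cytochrome c gene, was 2.46-fold higher, though its features gave differences of 0.52 and 1.30 and their median was not called. Glycolysis genes divided. Hk2 (at least 1.64-fold) and Pfkp (3.12-fold) were higher, and Pgam1 (2.87-fold), Pgk1, Aldoa and Tpi1 lower, the last 3 with calls that quantile and loess scaling ended. Cholesterol synthesis had 2 of 15 genes lower, Hmgcs1 (2.63-fold) and Cyp51 (2.54-fold), and Msmo1 higher with both values at background. Of the 8 ribosomal protein genes analysed here Rplp0 was lower (2.01-fold), a call that all 3 other scalings ended. The metallothioneins Mt1 (3.38-fold) and Mt2 (5.31-fold) were lower and the zinc importer Slc39a4 (3.65-fold) was higher.

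Vessel and connective tissue genes were lower on the mutant array, in 13 of 16 and 12 of 17 cases, with medians of -2.57 and -2.11. Igfbp7, made by vascular cells, read 10.77 in non-stem, 8.99 in wild-type stem, 3.93 in mutant and 3.91 in Ehf knockout cells, at least 44.0-fold lower on the mutant than on the non-stem array. The endothelial receptors Kdr (at least 2.77-fold) and Emcn (at least 2.20-fold), and Stab2 and Clec4g of the liver sinusoid (at least 1.06-fold and at least 1.32-fold), were lower. Fibronectin (Fn1), which hepatocytes also secrete, was at least 10.2-fold lower, Sparc at least 8.58-fold and the collagen Col3a1 at least 1.80-fold. On the mutant array 0 of 16 endothelial genes passed the control limit, against 13 on the non-stem array. Thy1, which T cells also carry, was the higher stromal gene (at least 1.59-fold).

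Genes that cell isolation can induce were partly higher. Of 16 immediate early genes 6 were higher and 0 lower, among them Klf6 (7.98-fold), Jun (6.05-fold), Atf3 (at least 4.18-fold) and Fos (5.21-fold). Fos read 5.52 in non-stem, 8.71 in wild-type stem, 7.90 in mutant and 7.01 in Ehf knockout cells, and was highest on the wild-type stem array. Egr1 (0.16) and Dusp1 (0.75) were not called. The heat shock gene Hspa1a was at least 9.06-fold higher while the mitochondrial chaperonin Hspd1 was 3.65-fold lower. Among p53 targets the cell cycle inhibitor Cdkn1a was 6.17-fold higher and the death receptor Fas at least 3.32-fold, with features that differed by 0.30 and 1.79, beside lower values for Ccng1 (2.26-fold) and Sesn2 (at least 1.01-fold). Quantile and loess scaling ended the calls of Ccng1 and Sesn2. The sex-linked genes did not separate the arrays. Xist, which is made from the inactive X chromosome, read 1.93 in non-stem, 8.46 in wild-type stem, 2.44 in mutant and 8.79 in Ehf knockout cells, and Uty of the Y chromosome 5.28 in non-stem, 3.39 in wild-type stem, 4.50 in mutant and 1.92 in Ehf knockout cells. Xist was therefore at background on both arrays of the comparison and bright on the other pair.

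Noncoding genes made up a small share of the calls, with 10 of 3343 long noncoding RNA genes higher and 18 lower. Of 19240 protein-coding genes 916 were higher and 1732 lower, and of all genes 3.66% and 6.87% were. A call also requires that the brighter value reach the brightness limit of its array. The part of that rule in the low number of noncoding calls was not tested. Tmem238l, annotated as noncoding, read 4.67 in non-stem, 6.95 in wild-type stem, 7.98 in mutant and 2.88 in Ehf knockout cells and was at least 7.08-fold higher on the mutant than on the non-stem array. Snhg5, a host of small nucleolar RNAs, was at least 1.38-fold higher, and Lncpint, which p53 induces, at least 1.21-fold lower. The precursors of Mir194-1 (at least 2.56-fold) and Mir215 (at least 2.67-fold), chosen after their values were seen, were higher. Mir194-1 read 3.94 in non-stem, 4.31 in wild-type stem, 6.51 in mutant and 3.62 in Ehf knockout cells, so only the mutant array stood above its limit, and Mir215 read 6.58 against 4.89. Their relatives on another chromosome, Mir194-2 (-0.081) and Mir192 (0.76), were not called. The mature forms that these precursors encode are shown 5′ to 3′ as RefSeq gives them (GRCm38.p6), with the seed, bases 2 to 8, in capitals.

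mmu-miR-194-5p, chr1:185313325-185313346, plus strand: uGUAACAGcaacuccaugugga

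mmu-miR-215-5p, chr1:185313610-185313630, plus strand: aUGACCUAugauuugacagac

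mmu-miR-192-5p, chr19:6264857-6264877, plus strand: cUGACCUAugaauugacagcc

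The seeds of miR-215 and miR-192 were identical and that of miR-194 differed. The array features read the precursor transcripts, so the values say nothing of the mature forms.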

How the data were processed

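Total RNA of 4 samples was read on 4 Clariom D mouse arrays, per the labels' protocols. The deposited table holds the authors' log2 values per feature. The submitters' processing notes name Affymetrix Power Tools and RMA. RMA subtracts background, so the differences of dim features depend on that step and are uncertain. Versions and a genome build are not given in the sources used here. Of 72688 features, 31269 carried 1 gene symbol in the platform annotation after 1153 symbols were updated through RefSeq (GRCm38.p6), 1481 carried several and 39938 were unnamed here. Where several features named a gene (441 genes), the brightest on average was taken.

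Differences, limits and folds were computed in Python 3.11.15 with pandas 2.3.3, and cyclic loess in limma 3.58.1, after tests on simulated data. The fold limit was 2-fold and the limits were the 75th percentile of named features and the 95th percentile of 5222 negative controls. No fold is given where both values lie under the control limits or the bound is under 1.

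The comparison, the 55 gene lists and the limits were chosen with earlier results of these data known. Some lists share members. Named genes are fixed pathway and marker genes, the 15 largest called differences each way (without defensins, predicted genes, small RNAs, chemosensory receptors and segments of antigen receptors), up to 6 called members of each list and 3 that ran against it, and the 5 largest noncoding each way. Members named without a call serve as markers. Alternatives were 3 scalings, other limits, other folds, the median of features and protein-coding genes only. Genes that share a probe set with another symbol are not analysed here.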

Additional observations from a re-analysis of the deposited data

How the results depend on the processing

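No paired analysis was possible because each group has 1 array, and for the same reason no replicate could be left out. The number of genes higher was 434 with a 4-fold and 1801 with a 1.5-fold limit, and the number lower 967 and 3292. It was 3295 with no limit on dim values. Both numbers stayed within 1.5 times the values given under the other alternatives. With only genes above the control limit, 17 of 55 list medians moved by more than 1.5-fold: crypt base stem cell to -0.91, Wnt target to 0.84, enteroendocrine to 2.16, tuft to -1.15, ileum to 3.15, T cell to 3.06, cytotoxic effector to 3.48, innate lymphoid to -0.30, macrophage to -2.38, neutrophil to -4.55, red cell to -3.45, interferon response to 1.18, distal kidney to -3.42, pancreas to 2.58, conjugation enzyme to -3.59, metallothionein to -1.22 and sex linked to -0.79. By construction fewer genes enter, many through only the array where they are high, so the sign of such a median can follow from the limit. The tuft value is that of Sucnr1 alone and the Wnt target value that of Axin2 and Myc. The major urinary protein median was -8.04 over protein-coding genes, without its pseudogene. The 3 scalings moved no list median by more than 1.5-fold, but 6 medians near 0 (LncGata6 pathway, crypt base stem cell, Wnt target, nutrient carrier, p53 target, urea cycle) changed sign. Of 269 named genes, calls ended for 11 under quantile normalization, 11 under cyclic loess, 6 under median centring, 5 under the control limit, 1 with the median of features and 65 at 4-fold. Of 2111 lower genes, 1488 had a mutant value under the control limit, and of 1125 higher genes 602 had a non-stem value under it. Where a fold is given for these genes, it is a lower bound.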

Other observations

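The genes of this section were chosen after their values were seen, apart from Ighm, Ly6m, Gsdmd, Gsdmc4, Igfbp4 and Igfbp7, which the naming rule gave. Butyrophilin-like proteins act with gamma delta lymphocytes of the gut epithelium. Genes of this family were higher on the mutant than on the non-stem array in 6 of 8 cases, which include the pseudogenes Btnl5-ps and Btnl7-ps. These related genes may share probes. Btnl1 read 4.51 in non-stem, 5.48 in wild-type stem, 7.36 in mutant and 3.20 in Ehf knockout cells, and was at least 4.60-fold higher on the mutant array than on the non-stem array. Btnl2 was 5.52-fold higher, Btnl4 at least 4.05-fold and Btnl6 4.73-fold. Segments of the T cell receptor gamma chain stood beside them. The constant segment Trgc3 read 5.35 in non-stem, 5.14 in wild-type stem, 10.11 in mutant and 4.62 in Ehf knockout cells, 27.1-fold higher on the mutant than on the non-stem array, and of 5 variable segments Trgv3, Trgv4 and Trgv7 were called (at least 9.29-fold, at least 6.77-fold and at least 3.70-fold). These segments resemble each other and may share probes. The variable segments were at background on the other 3 arrays. Variable segments of the immunoglobulin chains were also called higher, 33 of 117 for Ighv and 31 of 86 for Igkv, with 0 lower, although Ighm itself was lower. Their medians were 0.77 and 0.84. For the T cell receptor alpha and beta chains 6 of 88 (Trav) and 6 of 21 (Trbv) were higher. Of 5 variable segments of the delta chain (Trdv) 1 was higher, with a median of 0.996, against 3.85 for the gamma chain (Trgv). These segments too resemble each other and may share probes, so their calls may not be independent. The call limit of the mutant array (4.93) lies under its control limit (5.31), so such calls can be at background.

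Of genes whose symbols begin with Naip, 4 of 4 were higher on the mutant array, against 2 of 23 that begin with Nlr (Nlrc4 and Nlrp9b) and 3 of 9 caspases. The Naip genes include the pseudogene Naip3, and as related genes they may share probes. The called genes included Naip2 (at least 3.43-fold), Naip5 (at least 6.46-fold) and Naip6 (8.26-fold), Nlrc4, which acts with them to sense bacteria (at least 2.06-fold), the caspases Casp1 (at least 9.65-fold) and Casp4 (at least 2.62-fold) and the pore-forming gasdermin Gsdmd (5.84-fold). Gsdmd read 5.84 in non-stem, 5.03 in wild-type stem, 8.38 in mutant and 5.84 in Ehf knockout cells, highest on the mutant array, while Naip6 stood at 8.55 in mutant and 8.02 in wild-type stem cells. Of 12 gasdermin genes 4 were higher, Gsdmd and Gsdmc2 (at least 1.98-fold), Gsdmc3 (at least 1.69-fold) and Gsdmc4 (at least 3.76-fold), and the other 8 were at background on both arrays. Ido1, which breaks down tryptophan, read 4.28 in non-stem, 3.46 in wild-type stem, 8.02 in mutant and 3.07 in Ehf knockout cells, above the control limit only on the mutant array. The surface protein gene Ly6m read 4.51 in non-stem, 3.10 in wild-type stem, 9.66 in mutant and 3.23 in Ehf knockout cells, at least 22.7-fold higher on the mutant than on the non-stem array and at background on all arrays but the mutant.

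Of 538 gene families of at least 6 genes, grouped by the stem of their symbols, 12 had 50% or more of their members called in the same direction. Insulin-like growth factor binding proteins were lower in 6 of 7 cases, including Igfbp1 (at least 6.49-fold), Igfbp3 (at least 4.90-fold) and Igfbp5 (at least 5.56-fold). The small Y RNAs Rny1 (5.52 against 9.70) and Rny3 (8.49 against 11.71) were 18.1-fold and 9.33-fold lower on the mutant array. Of 62 ribosomal RNA genes 56 were lower, but these genes had 22 distinct values on the non-stem array, and the copies are near-identical.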
